A study of Mus musculus with 18 samples.

Results

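The infarcted left ventricle of mice killed 72 h after the coronary artery was tied (AMI 72 h) was compared with the left ventricle of sham mice, across every gene whose FPKM reached 1 in at least 1 of these 6 mice. FPKM is the number of sequenced fragments assigned to a gene, scaled for transcript length and for the size of the library. Of the 24419 gene symbols in the table, 13049 met this rule and 11370 stayed below 1 FPKM in all 6 mice. The 6 mice belong to a series of 18 mice in 6 groups of 3, namely sham and ligation for 10 min, 1 h, 6 h, 24 h and 72 h. All were C57BL/6 mice aged 8 weeks, with no transgene named and pentobarbital as the anaesthetic, and the artery tied was the proximal left anterior descending one. Poly-A RNA was sequenced. The labels call the sham mice the control group. The sham hearts stand for the start of the time course, and no sham mouse kept for 72 h was analysed here, so ligation and time since the operation cannot be told apart.

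The left ventricle is mostly cardiac myocytes (CMs) by volume, which burn fatty acids in densely packed mitochondria, while cardiac fibroblasts (CFs), endothelial cells and a small population of resident macrophages fill the spaces between. When a coronary artery is closed, the muscle it feeds dies, neutrophils and then monocytes enter, macrophages clear the dead cells, and CFs divide and lay down collagen. The third day lies between the clearing of dead muscle and the building of the scar. In whole tissue, fewer cells of a type and less RNA per cell cannot be told apart, and this holds for every list of cell type genes given here.

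Genes of the ventricular CM led the table in sham, and of 4 atrial genes Sln, Myl7 and Bmp10 stayed below 0.5 FPKM in each of the 6 mice, while Myl4 was at 1.57, 1.23 and 2.07 FPKM in sham and 2.29, 2.52 and 2.22 FPKM at 72 h and was not called. None of the 6 fat cell genes reached 1 FPKM. Between 11363 and 11463 symbols had at least 1 FPKM in the sham mice, against 12430 to 12505 at 72 h. Depth is unknown, since the table holds no read counts. The spread between mice, as the median over genes of the SD of log2(FPKM + 1), was 0.0827 in sham, 0.113 at 72 h and 0.185 at 24 h. The mice at 24 h, to which 72 h was also compared, thus varied most, and 24 h mouse 3 stood apart in inflammatory genes: S100a9, a neutrophil protein, was at 156, 28.9 and 721 FPKM in the 3 mice of that group.

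At 72 h, 3456 genes were called higher and 1098 lower than in sham. A gene was called where limma gave an adjusted p under 0.05 (Benjamini-Hochberg) and mean FPKM differed more than 2-fold. These were 26.5% and 8.41% of the genes tested, and the counts of list members are to be read against these percentages. At any ratio, 7011 genes (53.7%) were higher and 3197 (24.5%) lower. Large rises outnumbered large falls. A ratio over 4 was found for 1675 called genes and a ratio over 10 for 801, whereas 113 fell below a ratio of 0.25 and 14 below 0.1. The filter let in 1320 genes that reached 1 FPKM only at 72 h, of which 1136 were called higher. Another 284 reached it only in sham, of which 152 were called lower. With no filter on low FPKM, 4407 genes were higher and 1321 lower, and rises again outnumbered falls. Among the 10828 genes with at least 1 FPKM in all 6 mice, 2064 were higher and 874 lower. The scaling bears on this balance. Over all genes tested, the log2 fold change had a median of 0.30, which became 0.01 under median-of-ratios scaling and -0.11 under quantile normalization. The share of calls that were rises was 75.9% as deposited, 58.1% under the first of these and 48% under the second. Just inside the limit of 1 FPKM stood Gm11665 and AI427809, and just outside it Sprr2g and Gspt2, whose highest values were 0.9998 and 0.9989 FPKM. All fold changes are differences of log2(FPKM + 1) and come out smaller than the true ratio where FPKM is low.

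**Figure D1:**
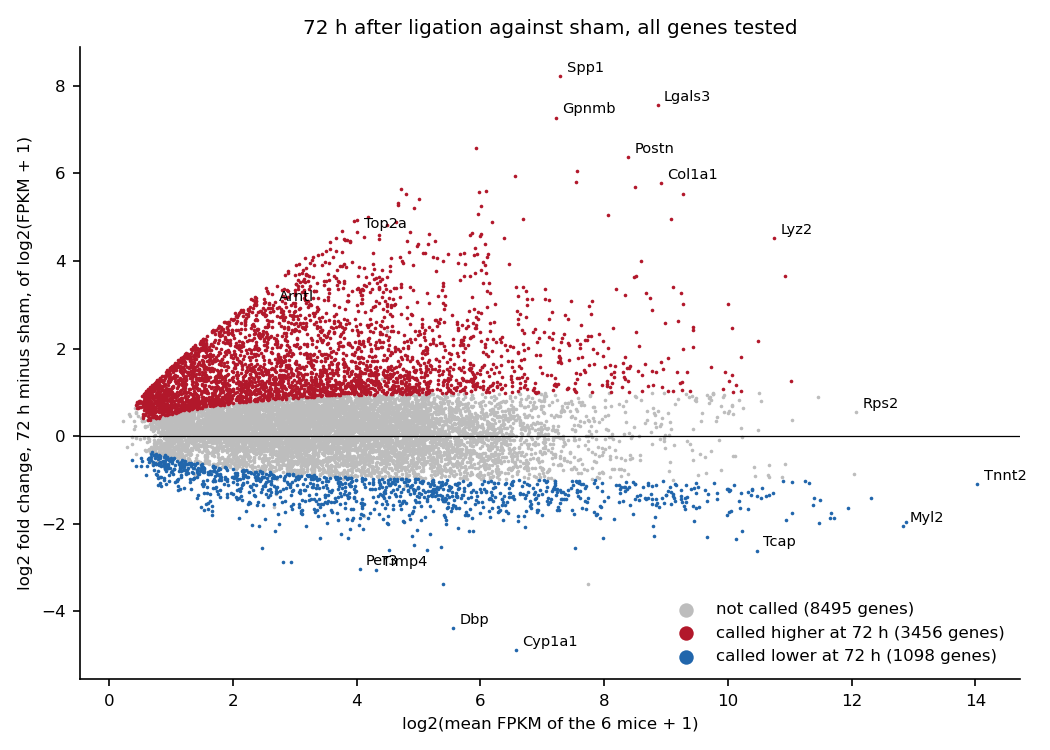
Each point is 1 of the 13049 genes tested, with its level on the x axis as log2(mean FPKM of the 6 mice + 1) and its log2 fold change at 72 h against sham on the y axis, and a set of genes from the text is named. The 3456 red points (called higher) reach 8.23 at Spp1, and the 1098 blue points (called lower) reach -4.89 at Cyp1a1.

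The 12 largest rises were genes of macrophages and of the new matrix. Spp1, or osteopontin, a secreted matrix protein of macrophages and other cells of healing tissue (chromosome 5, 104435118 to 104441050, plus strand, on mm10), was at 0.0112, 0.0336 and 0.0604 FPKM in the sham mice and at 261, 335 and 339 FPKM at 72 h. All 72 h mice lay far above all sham mice, with a log2 fold change of 8.23 ± 0.10 (SE, adjusted p = 1.83e-09 by limma). Gpnmb, a membrane glycoprotein of phagocytes (chromosome 6, 49036546 to 49070929, plus strand), was at 0.765, 0.856 and 1.07 FPKM in sham and 262, 276 and 345 FPKM at 72 h, a log2 fold change of 7.28 ± 0.11 with no overlap. Lgals3, the sugar-binding galectin-3, rose from 4 ± 0.961 to 927 ± 68.8 FPKM (mean ± SD, n = 3 mice in this and all later pairs of means). Hmox1, the haem-degrading enzyme, rose from 4.61 ± 0.685 to 372 ± 38.4 FPKM. Trem2, a lipid-sensing receptor of macrophages, rose by 5.94, Mpeg1, a pore-forming protein of macrophages, by 5.81, and Ctss, the lysosomal protease cathepsin S, by 5.68 on the log2 scale. Arg1, the arginine-degrading enzyme arginase, was at 0, 0.0214 and 0.0576 FPKM in sham and at 43, 56 and 52.7 FPKM at 72 h.

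The other members of the 12 belonged to the matrix. Col1a1, a chain of type I collagen (chromosome 11, 94936224 to 94953042, plus strand), was at 16.7, 13.2 and 19 FPKM in sham and 806, 1178 and 862 FPKM at 72 h. Postn, or periostin, a matrix protein of activated CFs (chromosome 3, 54361109 to 54391037, plus strand), was at 6.51, 5.95 and 8.81 FPKM in sham and 654, 683 and 651 FPKM at 72 h. Both groups of mice were narrow beside the difference, and the log2 fold changes were 5.77 ± 0.16 for Col1a1 and 6.37 ± 0.12 for Postn. Tnc, or tenascin C, a matrix protein of wounds, rose from 0.211 ± 0.0555 to 119 ± 42 FPKM, with 72 h mouse 2 the highest at 166 FPKM. Lox, which cross-links collagen, rose from 1.79 ± 0.447 to 133 ± 20.6 FPKM.

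The 12 largest falls were of another kind: 6 were genes of the circadian clock or its output (Dbp, Per3, Hlf, Per2, Tef and Ciart, described with the clock list), and the others were enzymes, a protease inhibitor and muscle genes. Cyp1a1, a cytochrome P450 induced by the aryl hydrocarbon receptor (chromosome 9, 57687928 to 57703824, plus strand), was at 87.3, 160.0 and 304 FPKM in sham and at 5.96, 9.73 and 1.23 FPKM at 72 h. Its sham mice were far apart, yet the groups did not overlap, and the log2 fold change was -4.89 ± 0.59 (adjusted p = 5.95e-05 by limma). Cyp26b1, which degrades retinoic acid, had a still wider sham group, at 37.9, 185 and 12.9 FPKM, against 5.45, 3.32 and 2.21 FPKM at 72 h. Timp4, an inhibitor of matrix proteases made by the healthy heart, fell from 34.5 ± 5.01 to 3.27 ± 0.895 FPKM. Tcap, or telethonin, which caps titin at the Z-disc (chromosome 11, 98383811 to 98384953, plus strand), fell from 2425 ± 132 to 404 ± 104 FPKM. Mylk4, a kinase of striated muscle, fell from 38.3 ± 2.86 to 5.51 ± 1.14 FPKM, and Dgat2, which makes triglyceride, from 313 ± 5.75 to 53.2 ± 12 FPKM.

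**Figure D2:**
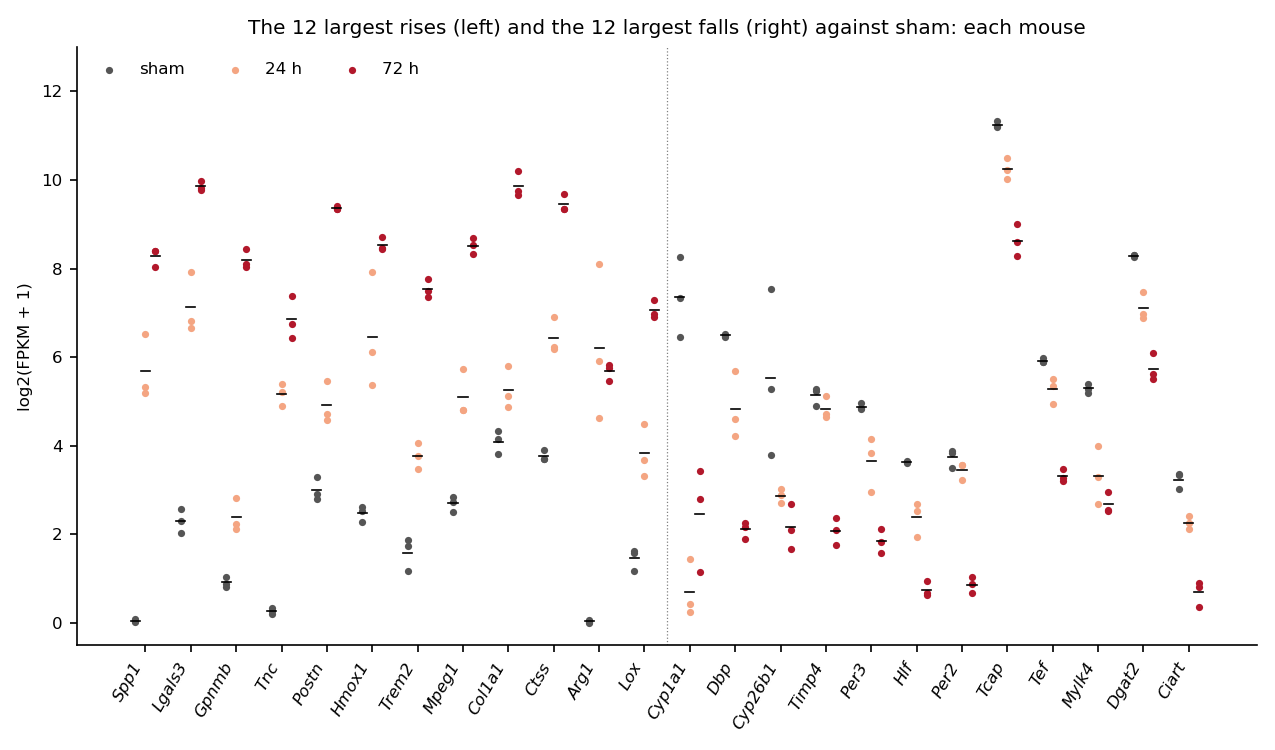
Each point is 1 mouse, as log2(FPKM + 1), for the 12 genes with the largest rises and the 12 with the largest falls against sham, and black bars are means of the 3 sham (grey), 24 h (orange) or 72 h (red) mice. No 72 h mouse overlaps a sham mouse in any of these genes, which is part of how they were chosen, and the 24 h mean lies between the others for all but Arg1 and Cyp1a1.

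The order of the most abundant transcripts changed. In sham the 5 highest means belonged to Tnnt2, Myl3, Myl2, Fabp3 and Slc25a4, all genes of contraction or energy supply. Tnnt2, cardiac troponin T, was at 23074, 23970.2 and 21543 FPKM in sham and 11982, 10127 and 9942 FPKM at 72 h, still the highest mean of all genes, with a log2 fold change of -1.10 ± 0.15. Quantile normalization, which fixes the top rank, sets this difference to 0. Behind Tnnt2 at 72 h came the ribosomal protein genes Rps2 and Rplp0, Ftl1, the light chain of the iron store ferritin, and Lyz2, the lysozyme of myeloid cells. Ftl1 rose from 282 ± 4.9 to 3603 ± 563 FPKM and Lyz2 from 141 ± 14.8 to 3292 ± 541 FPKM. Rps2 was at 0.54 on the log2 scale, below the 2-fold limit. The 10 most abundant genes took 14.2% to 14.9% of the FPKM sum in the sham mice and 6.82% to 7.99% at 72 h.

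Genes of the contractile apparatus fell together. Of 24 sarcomere and Z-disc genes, all in the table and all tested, 16 were called lower and 0 higher, with a median log2 fold change of -1.10, and their share of the FPKM sum went from 14.2% ± 0.373 in sham to 5.86% ± 0.711 at 72 h. Myl2, the ventricular regulatory light chain, was at 12499, 11537 and 11175 FPKM in sham and 3529, 2472 and 2630.0 FPKM at 72 h. Myl3, the essential light chain, fell by 1.95 and Myh6, the fast myosin heavy chain of the adult mouse ventricle, by 1.88 on the log2 scale. Pdlim5, a Z-disc adaptor, went the other way at 0.34 and was not called.

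The genes of excitation were lower as well. Of 17 ion channel and gap junction genes tested, 12 were lower and 0 higher, led by Kcnip2 at -2.53, a subunit of the transient outward potassium channel. Of 12 calcium handling genes, 6 were lower, among them Hrc, the calcium-binding protein of the sarcoplasmic reticulum, at -2.29, Pln (phospholamban) at -1.72 and Atp2a2, the calcium pump SERCA2, at -1.56. The exception was Fkbp1b, a binding partner of the ryanodine receptor, at 0.376, 1.31 and 0.652 FPKM in sham and 7.63, 8.2 and 7.9 FPKM at 72 h. Slc8a1, the sodium-calcium exchanger, was at 0.75 and not called. Of 14 cardiac transcription factors tested, 4 were lower and 0 higher. Hopx fell by 1.69 and Tbx5 by 1.44 on the log2 scale, while Tbx20 was at 0.67 and not called.

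Fetal and stretch genes of the CM did not follow the contractile genes. Of 12, all tested, 7 were higher than in sham and 0 lower, with a median of 1.07. Nppa, the atrial natriuretic peptide, was at 485, 206 and 338 FPKM in sham and 1614, 1743 and 2021 FPKM at 72 h, and Nppb, the brain natriuretic peptide, rose from 66.4 ± 6.99 to 241 ± 30.4 FPKM. In the direct test of 72 h against 24 h, however, 0 of the 12 were higher and 6 lower. Myh7, the slow myosin heavy chain, was at 300.1, 260.0 and 149 FPKM at 24 h and 58.8, 70.8 and 68.6 FPKM at 72 h, below the 108 to 123 FPKM of the sham mice, though its ratio to sham did not pass the limit. Ankrd2, a stretch-response protein of striated muscle, was at 56.7, 110.2 and 86.4 FPKM at 24 h and 2.73, 2.47 and 2.24 FPKM at 72 h, the largest fall between these times among the genes that the naming rule admits (log2 fold change -4.57 ± 0.23, adjusted p = 3.43e-05 by limma).

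Most genes of oxidative energy supply were called lower. All 14 of 14 citric acid cycle genes were called lower (median -1.39), as were 23 of 26 genes of fatty acid oxidation (median -1.49), 12 of 13 of ketone and branched-chain amino acid use (median -1.38) and 70 of 83 tested subunits and assembly factors of the respiratory chain and ATP synthase (median -1.28). No member of these lists was called higher, as deposited or under any of the 3 other scalings, and those not called included Cox6a1 at 0.52 and Ndufa4l2 at 0.29, above sham. Idh2, the mitochondrial isocitrate dehydrogenase, was at 1153, 1136 and 1033 FPKM in sham and 351, 248 and 271 FPKM at 72 h. Eci1, an isomerase of fatty acid oxidation, fell from 448 ± 19.7 to 123 ± 33.7 FPKM. The respiratory chain took 13.2% ± 0.263 of the FPKM sum in sham, 9.58% at 24 h and 5.58% ± 0.84 at 72 h. Genes of the mitochondrial genome were not analysed here.

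Fewer of their regulators were called. Of 12 metabolic regulators 6 were lower, with Klf15 at -1.91, Ppara, the fatty acid receptor, at -1.54 and Ppargc1a, the coactivator PGC-1alpha, at -1.40, while Nrf1 was at 0.52 and not called. Of 22 glycolysis and hypoxia genes, 6 were higher and 2 lower, close to the shares of all genes tested, and under median-of-ratios scaling 4 were higher and 6 lower. Slc16a3, the lactate exporter MCT4, was at 1.26, 1.1 and 1.8 FPKM in sham, 32.4, 19 and 119.9 FPKM at 24 h and 28, 33.5 and 25.8 FPKM at 72 h. The muscle phosphofructokinase Pfkm fell by 1.71 on the log2 scale, and the hexokinase Hk2 was also called lower.

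Pairs of related genes, in most of which the first is the form favoured by heart or skeletal muscle and the second is used elsewhere, set these changes side by side within each mouse. In 25 of 26 pairs both forms were tested. The first, or muscle, form was called lower in 22 pairs and higher in 0, and the other form was called higher in 11 and lower in 1 (Cox7a2). The log2 ratio of the muscle form to the other form was lower at 72 h in all 25 pairs, and in 24 of them no 72 h mouse overlapped a sham mouse. In 3 pairs the roles differ, since Myh7 is like Myh6 a myosin of striated muscle, Ldha is the form of skeletal muscle and Ldhb that of the heart, and Ndufa4 is used in all tissues. In the 22 pairs left without them, the muscle form was called lower in 19 and the other form higher in 11, and the ratio was lower in 22, 21 of them with no overlap. For 3 against 3 mice this gives p = 0.1 in the exact two-sided permutation test, the smallest it can give, and 0.104 after Benjamini-Hochberg adjustment over the pairs, so no pair can pass 0.05. Fabp3, the fatty acid binding protein of muscle, fell from 7389 ± 239 to 2800.1 ± 379.8 FPKM, while Fabp5, the form of epidermis and macrophages, was at 88.3, 59.2 and 82.3 FPKM in sham and 695, 714 and 820.2 FPKM at 72 h. Cox6a2, the muscle form of a cytochrome c oxidase subunit, fell by 1.97 on the log2 scale, and Cox6a1 was at 0.52 and not called. Among the glycolytic enzymes, Eno3 and Pgam2 of muscle fell by 1.65 and 1.63 while Eno1 and Pgam1 rose by 1.63 and 1.45, and the log2 ratio of Pgam2 to Pgam1 went from 0.80 to -2.28. Of the glucose transporters, Slc2a4 (GLUT4, the insulin-dependent one) fell from 153 ± 6.09 to 40 ± 7.1 FPKM and Slc2a1 (GLUT1) rose from 6.15 ± 0.237 to 13.8 ± 2.49 FPKM. Lmod2 and Lmod1, actin nucleators, were the pair whose mice overlapped. A further such pair stood in the ribosome list. Rpl3l, which takes the place of Rpl3 in striated muscle, fell from 741 ± 14.2 to 157 ± 51.1 FPKM, and Rpl3 was at 225, 214 and 236 FPKM in sham and 682, 750.4 and 776 FPKM at 72 h.

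**Figure D3:**
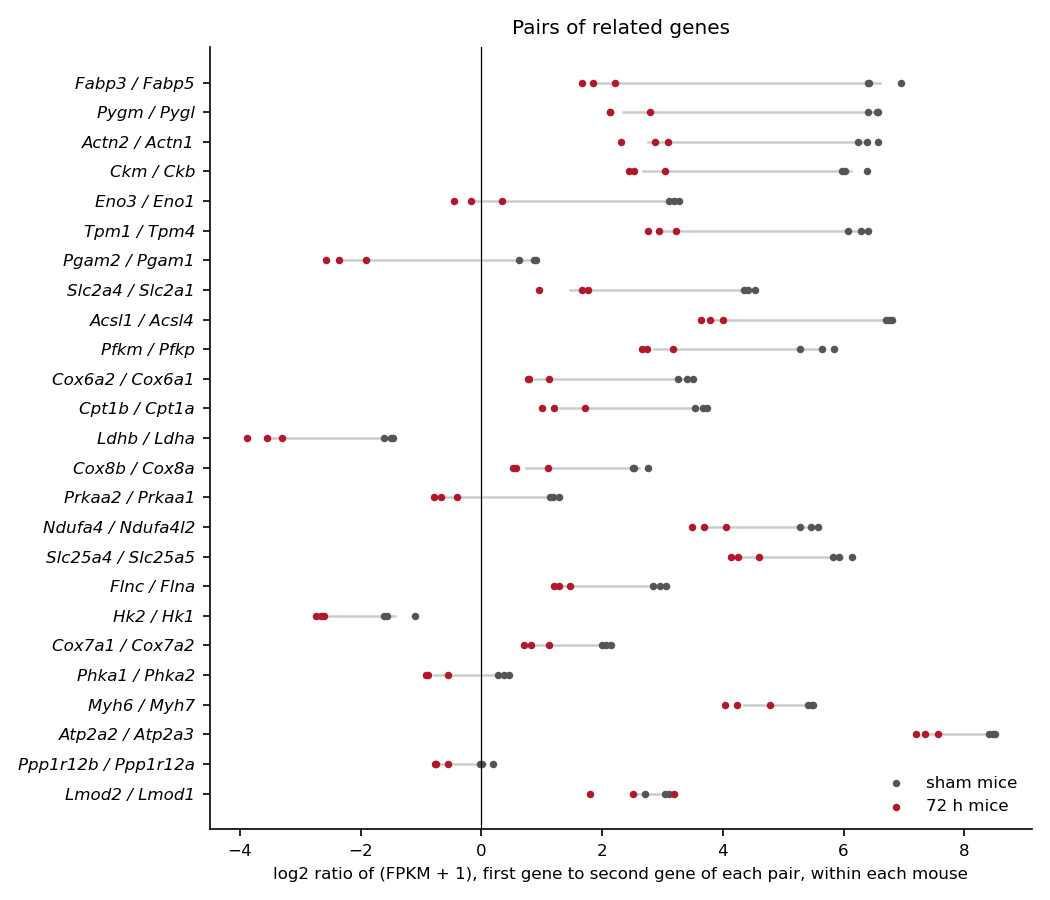
The x axis is the log2 ratio of FPKM + 1 of the first to the second gene of each pair within each mouse, with sham mice in grey, 72 h mice in red and a line joining the group means, for 25 pairs. All lines run to the left, the longest by -4.69 for Fabp3 and Fabp5, and the mean ratio lies below 0 in 7 of the pairs at 72 h against 2 in sham.

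The matrix rose from collagen chain to cross-link. Of 44 collagen genes listed, 27 were tested, and 24 of these were called higher and 0 lower, with a median of 2.52, although 7 of the tested ones reached 1 FPKM only at 72 h and so entered through the group where they were high. Col3a1, the type III chain of young scar, was at 24.7, 20.2 and 32.1 FPKM in sham and 1045, 1399 and 1188 FPKM at 72 h. The basement membrane chains Col4a3 and Col4a4 were at -0.31 and -0.25 and not called. Collagens took 0.0518% ± 0.00789 of the FPKM sum in sham and 0.825% ± 0.169 at 72 h. Of 25 genes that hydroxylate, fold, cut or cross-link collagen, 22 were higher, and 2 of the 25 reached 1 FPKM only at 72 h. The rises were led after Lox by P4ha3, a prolyl hydroxylase, at 4.52 and by the lysyl oxidases Loxl3 and Loxl2 at 3.76 and 3.49.

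Other parts of the matrix rose with the collagens. Of 18 matricellular proteins tested, 17 were higher (median 3.34, 3 reached 1 FPKM only at 72 h), and Sparcl1 was at -0.27 and not called. Of 16 elastic fibre genes 11 were higher, and 2 of the 16 reached 1 FPKM only at 72 h. Ltbp2, a latent TGF-beta binding protein, was at 4.89 and the microfibril protein Mfap4 at 4.17, while Ltbp4 stood at -0.45, not called. Of 15 proteoglycan and hyaluronan genes tested, 8 were higher and 1 lower, and 2 reached 1 FPKM only at 72 h. Biglycan (Bgn) rose by 3.09 and the hyaluronan synthase Has2 by 2.77, and Has3 fell by 1.16. Of 41 matrix proteases and inhibitors tested, 28 were higher and 2 lower, and 12 reached 1 FPKM only at 72 h. The inhibitors divided. Timp1 rose from 0.431 ± 0.0635 to 61.6 ± 16.3 FPKM, while Timp3 and Timp4 fell by 1.48 and 3.07 on the log2 scale.

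CF genes divided between activation and rest. Of 15 activation genes tested 12 were higher and 1 lower, 3 having reached 1 FPKM only at 72 h. Meox1, a transcription factor of activated CFs, rose by 2.99, and the lower one was Lrrc15, a membrane protein of activated CFs, at -0.92. Lrrc15 went from 9.66 ± 0.228 to 4.65 ± 0.65 FPKM, near the 2-fold limit. It was not called with scaling to the same sum, and stood at 0.94 against 24 h, not called. Of 14 smooth muscle type contractile genes 13 were higher, with Actn1 at 2.40, Tagln2 at 2.23 and Tagln at 2.21, all proteins of the actin skeleton. Acta2, smooth muscle actin, was at 72.5, 55.8 and 85.5 FPKM in sham, 62, 81.3 and 73.6 FPKM at 24 h and 194, 263 and 238 FPKM at 72 h. The CF markers Cilp and Comp, both matrix proteins, rose by 3.64 and 1.64. Of 16 genes of resting CFs 5 were higher, among them Dpt and Pdgfra, and 3 lower, among them Fmo2 and Gsn, and under median-of-ratios scaling 3 were higher and 4 lower. Genes listed for pericytes and smooth muscle cells did not rise with the contractile genes. Of 9, Mcam was higher at 1.15 and Abcc9, Myh11 and Kcnj8 were lower at -1.83, -1.31 and -1.27. In sham Abcc9 was at 162 ± 4.38 FPKM, against 18.4 ± 1.59 FPKM for Myh11, and which cells expressed Abcc9 was not tested. Under median-of-ratios scaling and quantile normalization Mcam was not called.

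Of 10 epicardial and mesothelial genes tested 8 were higher, 5 of the 10 having reached 1 FPKM only at 72 h, and 72 h mouse 1 was the highest of its group in 9 of the 10. Msln, or mesothelin, was at 43.1, 14.7 and 17.5 FPKM at 72 h and 4.6, 8.52 and 11 FPKM in sham. Its rise is thus largest in a single mouse, although the groups did not overlap (log2 fold change 1.44 ± 0.39, adjusted p = 0.00821 by limma). The epicardial factor Wt1 was at -0.08 and not called.

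Most endothelial genes were not called. Of 20, 4 were lower (Car4, Cd300lg, Flt1 and Rgcc, from -1.48 to -2.24) and 1 higher, the tight junction gene Cldn5 at 1.05, which was not called under median-of-ratios scaling or quantile normalization. The median was -0.40. Of 13 angiogenic signals and tip cell genes, 4 were higher and 1 lower, and under median-of-ratios scaling 1 was higher and 3 lower. Figf, the growth factor VEGF-D, rose by 2.50 and Vegfb fell by 1.43 on the log2 scale. Of 7 lymphatic genes Pdpn alone was called, higher at 3.18, a gene that activated CFs and macrophages also express, and Lyve1 and Prox1 were at -0.79 and -0.30. Of 6 Schwann cell genes tested, of which 2 reached 1 FPKM only at 72 h, 2 were higher and 0 lower, a balance that turned under median-of-ratios scaling (2 higher and 3 lower) and quantile normalization (1 higher and 4 lower).

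Most genes of each macrophage list were called higher. All 13 of 13 pan-macrophage genes were higher (median 3.88), as were 15 of 15 of the lipid-handling macrophage (median 3.28), of which 1 and 2 reached 1 FPKM only at 72 h. Adgre1, the F4/80 antigen, was at 1, 1.34 and 1.51 FPKM in sham and 23.2, 24 and 26.5 FPKM at 72 h. The summed FPKM of the pan-macrophage list was 212 to 239 in sham, 589.9 to 1001 at 24 h and 4084 to 5288 at 72 h, with no overlap between the groups. Of 12 genes of resident macrophages 8 were higher, with the mannose receptor Mrc1 at 2.66 and the growth factor Igf1 at 2.49. But Timd4, which marks long-lived resident cells, was lower at -0.71, and Lyve1, also in this list, was at -0.79 and not called. Timd4 went from 3.03 ± 0.358 to 1.51 ± 0.635 FPKM, near the 2-fold limit. With scaling to the same sum, 0 members of the list were lower, so Timd4 was not called. Of the 12, 2 reached 1 FPKM only at 72 h, and under quantile normalization 6 were higher and 2 lower. Of 12 monocyte genes 10 were higher, 7 of the 12 having reached 1 FPKM only at 72 h, and Ccr2, the receptor that brings monocytes out of the marrow, rose from 0.638 ± 0.139 to 38.4 ± 5.81 FPKM.

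Neutrophil genes were above sham and, in sum, below 24 h. Of 10 tested against sham, out of 17 listed, 9 were higher (6 of the 10 reached 1 FPKM only at 72 h) and G0s2 was lower. S100a9 was at 32.9, 38.5 and 38 FPKM at 72 h against 2.62, 4.02 and 1.53 FPKM in sham. Against 24 h, 2 of 13 were called lower and 0 higher, against a background of 3.05% and 15.5% of all genes in that comparison. G0s2, also lower than sham, was among those called, while S100a9 and S100a8 were at -2.01 and -1.92 and not called. The summed neutrophil list spanned 186 to 1587 FPKM at 24 h and 89.9 to 102 FPKM at 72 h, so these ranges did not overlap. Lymphocyte genes were near the limit: of 11 T cell, 6 B cell and 8 NK cell genes listed, 3 of each were tested, and Lck, the T cell kinase, was at 2.81, 2.11 and 3.51 FPKM at 72 h. Of 9 erythroid genes 7 were tested, with a median log2 fold change of -0.59. The beta-globin copies are uncertain, since Hbb-b1 was at 1275, 0.192 and 0.271 FPKM in the sham mice while its near-identical copy Hbb-bs was at 66, 1028 and 1467 FPKM.

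**Figure D4:**
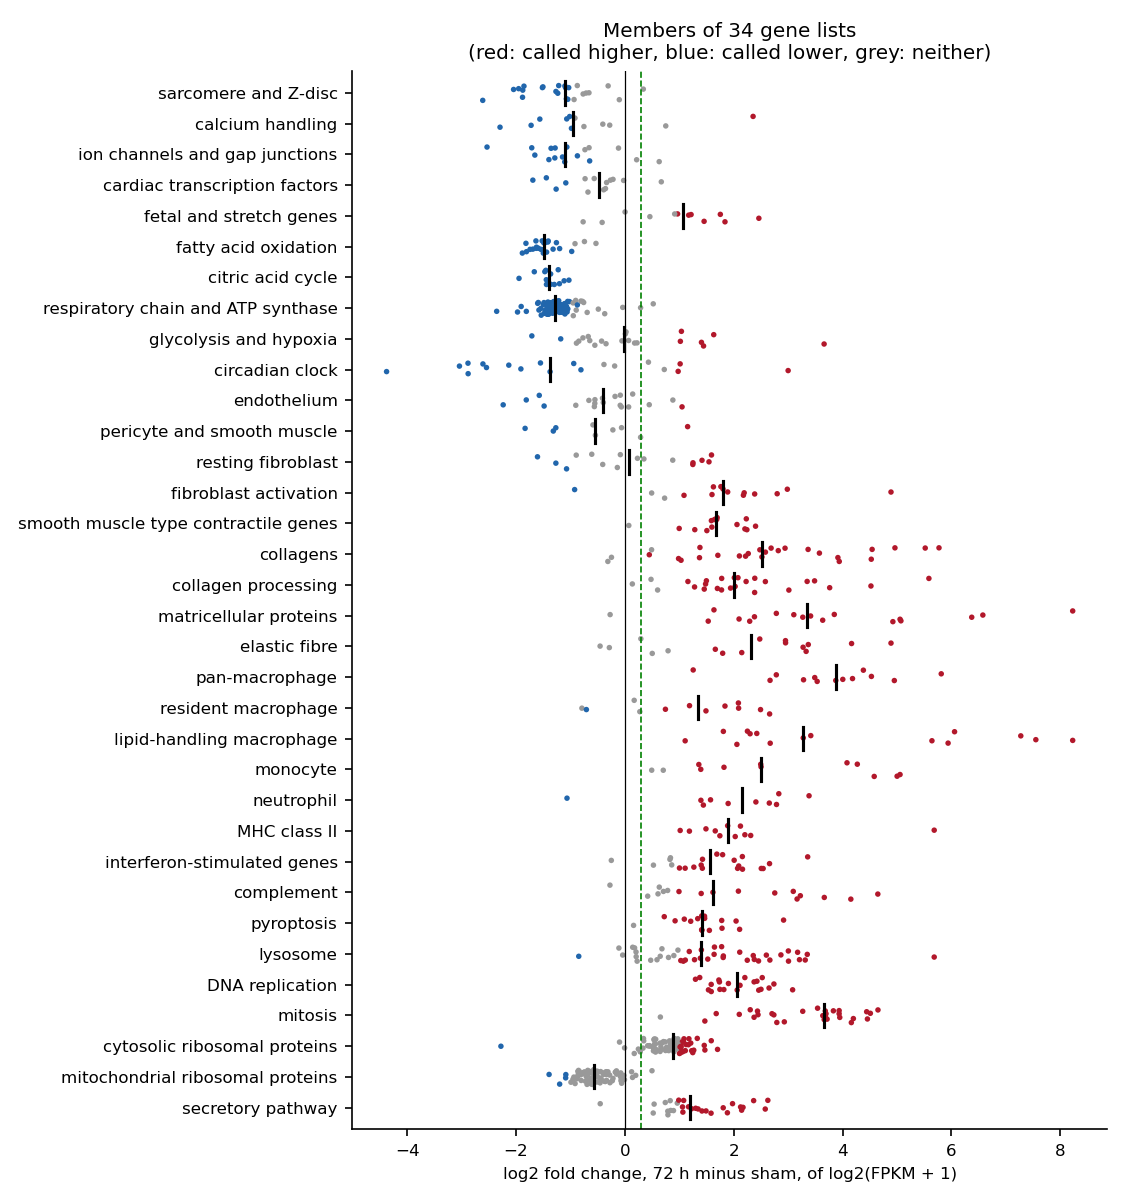
Each point is 1 tested member of 1 of 34 gene lists, at its log2 fold change at 72 h against sham (x axis), red where called higher, blue where called lower and grey otherwise. Black bars are list medians and the green dashed line is the median of all genes tested, 0.30. The sarcomere and energy lists lie left of it, and the collagen, pan-macrophage and mitosis lists lie right of it.

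Most tested genes of further immune lists were also called higher. All 11 of 11 genes of the MHC class II list were higher (median 1.89, 4 reached 1 FPKM only at 72 h), led by Ctss, which trims the invariant chain and is also in the lysosome list, with H2-Ab1, a class II chain, at 2.12. Of 22 interferon-stimulated genes 17 were higher than in sham (2 of the 22 reached 1 FPKM only at 72 h), and 21 of 22 were higher than at 24 h. Cxcl10, a T cell chemokine, rose by 3.36 and Isg15 by 2.51 against sham, while Cxcl9 was at -0.25 and not called. Of 17 complement genes tested 11 were higher, with C1qb at 3.66 and the receptor C3ar1 at 4.65. Of 17 genes of pyroptosis, an inflammatory form of cell death, 16 were higher, but 11 of the 17 reached 1 FPKM only at 72 h. Il1b, the cytokine released by it, was at 0.401, 0.414 and 0.364 FPKM in sham and 7.12, 12.4 and 9.72 FPKM at 72 h. Of 43 lysosomal genes tested 28 were higher and 1 lower, with Lgmn, the protease legumain, at 3.35 and the cathepsins Ctsz and Ctsc at 3.31 and 3.21. Their share of the FPKM sum went from 0.45% ± 0.0116 in sham to 1.8% ± 0.176 at 72 h.

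Cell division genes were near 0 in sham. Of 30 mitosis genes, all in the table and tested, 29 were called higher (median 3.65), but 27 reached 1 FPKM only at 72 h and thus entered through the group where they were high. In the test against 24 h 30 of 30 were higher. Top2a, the topoisomerase of dividing cells, was at 0.134, 0.155 and 0.359 FPKM in sham, 0.744, 2.49 and 0.63 FPKM at 24 h and 23.1, 38.2 and 28.8 FPKM at 72 h. Ccnb2, or cyclin B2, was at 0.156, 0.144 and 0.183 FPKM in sham, 0.222, 0.985 and 0.102 FPKM at 24 h and 23.5, 27.6 and 25.4 FPKM at 72 h. In both genes the 72 h mice lay above every other mouse, and among the 24 h mice the second was the highest. All 21 of 21 DNA replication genes were higher (median 2.06), 8 of which reached 1 FPKM only at 72 h, led by Mcm5, of the replicative helicase, at 3.08. Of 8 inhibitors of cyclin-dependent kinases, 5 were higher, and 3 of the 8 reached 1 FPKM only at 72 h. Cdkn1a (p21) was higher at 2.36, and Cdkn1c was lower at -1.90. Which cells divided cannot be read from whole tissue.

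The promoters of these dividing-cell genes often held a CCAAT box (letters CCAAT, searched on both strands in the 250 bases before each RefSeq start). It was in 74.1% of 27 promoters of the mitosis list and 70% of 20 promoters of the DNA replication list, against 34.8% of 12462 promoters of tested genes and 33.9% of all 32851 promoters. The secretory, clock and MHC class II lists were also high, at 68%, 66.7% and 77.8%. The cell cycle homology region (letters TTTGAA, both strands) was in 29.6% of the mitosis promoters and 15% of the DNA replication promoters, against 10.6% of those of tested genes and 16% of all promoters. Lists not tied to division reached like shares, at 30.8% for the monocyte list and 28.6% for cardiac transcription factors. The promoters of Top2a (chr11:99024190-99024439, minus strand) and Ccnb2 (chr9:70421555-70421804, minus strand), from RefSeq on GRCm38.p6, are shown because these genes had the largest rises of the list and hold both motifs. Capitals mark CCAAT and TTTGAA on either strand, and each sequence ends at the base before the start of transcription.
Top2a: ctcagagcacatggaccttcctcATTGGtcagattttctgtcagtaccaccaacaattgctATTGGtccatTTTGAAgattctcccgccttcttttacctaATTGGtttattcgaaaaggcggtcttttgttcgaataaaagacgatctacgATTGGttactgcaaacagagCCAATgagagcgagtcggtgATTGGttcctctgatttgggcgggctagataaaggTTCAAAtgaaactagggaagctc
Ccnb2: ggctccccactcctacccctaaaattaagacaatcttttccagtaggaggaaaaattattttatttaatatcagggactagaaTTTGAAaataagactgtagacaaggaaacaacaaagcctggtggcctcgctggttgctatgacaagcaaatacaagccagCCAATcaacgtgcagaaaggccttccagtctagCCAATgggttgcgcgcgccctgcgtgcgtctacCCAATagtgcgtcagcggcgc
Top2a holds 6 CCAAT boxes, and Ccnb2 holds 3, whose first bases lie 87, 54 and 21 bases before the start. A match to letters is a description and not a shown site of binding.

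Secretory genes rose, while cytosolic ribosomal protein genes, in the FPKM as deposited, were called higher about as often as all genes tested. Of 81 cytosolic ribosomal protein genes tested, 23 were called higher (median 0.88) and 1 lower. The number higher was 5 under median-of-ratios scaling, 29 under quantile normalization, 33 with scaling to the same sum and 14 without 72 h mouse 3. Their share of the FPKM sum was 6.96% ± 0.23 in sham, 9.81% ± 0.951 at 24 h and 12.8% ± 0.819 at 72 h. Of 76 mitochondrial ribosomal protein genes (median -0.58), 4 were called lower, with 30 under median-of-ratios scaling, 20 under quantile normalization and 8 without 72 h mouse 1. Of 30 genes of the secretory pathway 20 were higher, among them Kdelr3 at 2.63, a receptor that returns proteins to the endoplasmic reticulum, and Sec61b at 2.37, of the translocation pore. Ddit3, the stress factor CHOP, was at -0.45 and not called. Of 38 proteasome subunits tested 2 were higher, Psmb8 at 1.47 and Psmb9 at 1.10, both of the immunoproteasome.

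Signals of the TGF-beta and WNT families were called higher more often than all genes tested, and lower about as often or less. Of 20 TGF-beta and BMP genes tested 12 were higher and 1 lower, with the ligands Inhbb and Tgfb3 at 2.86 and 2.21 among the rises and Bmp6 at -1.39. Of 20 WNT genes tested 10 were higher and 2 lower, with a median of 0.33, near the 0.30 of all genes tested. The leading ones were secreted modulators, Sfrp2 at 4.39, Sfrp1 at 3.73 and Dkk3 at 2.95. Sfrp5 and Axin2, a target of the pathway, were lower at -0.89 and -0.87. Both lists held 3 genes that reached 1 FPKM only at 72 h, and the WNT list 2 that did so only in sham. WNT genes called were 7 higher and 3 lower under median-of-ratios scaling, and 7 and 4 under quantile normalization, where their median was -0.25. With scaling to the same sum they were 10 and 1. Of 15 growth factors and cytokines of repair tested 6 were higher and 1 lower, and 7 of the 15 reached 1 FPKM only at 72 h. Hgf, the hepatocyte growth factor, rose from 0.116 ± 0.0753 to 4.76 ± 0.776 FPKM and Fgf1 fell from 50.9 ± 2.99 to 20.9 ± 2.33 FPKM. Of 15 aryl hydrocarbon receptor and retinoid genes tested, 6 were higher and 2 lower, and 3 reached 1 FPKM only at 72 h. Cyp1a1 and Cyp26b1 fell, while Cyp1b1, also a target of the receptor, rose by 2.79, and Aldh1a2, which makes retinoic acid, by 3.08.

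Genes of the circadian clock stood out among the falls. Of 19, all tested, 12 were lower and 3 higher, and 2 reached 1 FPKM only at 72 h and 2 only in sham. Under median-of-ratios scaling 12 were lower and 2 higher, and under quantile normalization 12 and 1. Dbp, an output factor of the clock (chromosome 7, 45705088 to 45710203, plus strand), was at 91.5, 88.9 and 86.5 FPKM in sham, 23.3, 50.8 and 17.6 FPKM at 24 h and 3.78, 2.74 and 3.52 FPKM at 72 h. Its fold change against sham was -4.38 ± 0.10 (adjusted p = 6.19e-09 by limma), and no 2 of these groups overlapped. The period genes Per3 and Per2 fell by 3.04 and 2.88, the output factors Hlf and Tef by 2.88 and 2.61, and the repressor Ciart by 2.54 on the log2 scale. The activator Arntl (BMAL1) was at 0.495, 0.344 and 0.327 FPKM in sham, 1.33, 0.604 and 2.25 FPKM at 24 h and 10.8, 10.3 and 9.2 FPKM at 72 h, and its partners Npas2 and Clock rose by 1.02 and 0.98. In a running clock Arntl is high at the hours when Dbp and the period genes are low, and the hour of day at which each heart was taken is not given in the sources used here, so hour of day and group cannot be told apart.

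The E-box (letters CACGTG, which read the same on both strands) was in 28.6% of 21 clock promoters and in 26.3% of 38 lysosomal promoters, against 8.19% of promoters of tested genes and 6.02% of all promoters. The TGF-beta and BMP list, with 15 promoters, had a like share of 26.7%. The promoters of Tef (chr15:81802423-81802672, plus strand), Ciart (chr3:95882229-95882478, minus strand) and Lgmn (chr12:102439093-102439342, minus strand), again on GRCm38.p6, are shown as large changes of these lists that hold the motif, which is in capitals.
Tef: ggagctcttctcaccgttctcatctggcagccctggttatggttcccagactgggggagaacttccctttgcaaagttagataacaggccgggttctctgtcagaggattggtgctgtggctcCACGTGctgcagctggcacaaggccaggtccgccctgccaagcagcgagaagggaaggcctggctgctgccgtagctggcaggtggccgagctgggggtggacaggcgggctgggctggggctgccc
Ciart: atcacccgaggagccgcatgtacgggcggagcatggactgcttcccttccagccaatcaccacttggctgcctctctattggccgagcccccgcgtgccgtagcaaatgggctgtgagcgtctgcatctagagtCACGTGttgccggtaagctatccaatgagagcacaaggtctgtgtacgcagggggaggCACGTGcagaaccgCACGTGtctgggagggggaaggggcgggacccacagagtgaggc
Lgmn: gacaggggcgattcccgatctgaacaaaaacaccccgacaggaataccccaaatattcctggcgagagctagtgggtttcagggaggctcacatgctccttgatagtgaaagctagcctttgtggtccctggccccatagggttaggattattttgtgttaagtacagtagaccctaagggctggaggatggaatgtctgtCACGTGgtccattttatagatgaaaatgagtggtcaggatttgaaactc
Ciart holds 3 E-boxes, while Tef and Lgmn hold 1 each. The MCAT element (letters CATTCC, both strands) was in 37.5% of 16 promoters of the smooth muscle type contractile genes and 40% of 15 promoters of the fetal and stretch genes. It was in 10.85% of promoters of tested genes and 12.6% of all promoters. High shares were also found in the sarcomere list, most of which was called lower (27.6% of 29 promoters). The growth factor list had 29.4% of 17 promoters and the epicardial list 33.3% of 6. Tagln2, which rose by 2.23, holds it in 2 places (chr1:172499996-172500245, plus strand), marked by capitals.
Tagln2: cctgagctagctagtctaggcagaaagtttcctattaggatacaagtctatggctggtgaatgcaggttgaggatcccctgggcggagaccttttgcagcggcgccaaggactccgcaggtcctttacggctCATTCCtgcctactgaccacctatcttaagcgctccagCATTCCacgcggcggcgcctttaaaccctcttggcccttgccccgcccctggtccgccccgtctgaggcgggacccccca
Over all called genes the CCAAT box was near its background, in 35.8% of promoters of genes called higher and 37.8% of those called lower.

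The direct test against 24 h asked which of these differences lay between the first and the third day. Of 13028 genes tested, 2019 (15.5%) were higher at 72 h and 397 (3.05%) lower. The 5 largest rises were Gpnmb, Mfap4 (an elastic fibre protein), Ptn (the growth factor pleiotrophin), Sprr2a2 (a small proline-rich protein) and Ccl8 (a monocyte chemokine). Mfap4 was at 2.44, 4.53 and 1.72 FPKM at 24 h and 126, 109 and 158 FPKM at 72 h, with 4.34 to 8.86 FPKM in sham. Ptn was at 0.232, 0.507 and 0.0528 FPKM at 24 h and 24.2, 27.9 and 63.9 FPKM at 72 h, where mouse 3 was the highest. Sprr2a2 was listed at 0 in all sham and 24 h mice and at 20.8, 28.5 and 25.8 FPKM at 72 h, and close copies of this gene make its own value uncertain. Of the collagens 22 of 25 tested were higher, of the pan-macrophage genes 10 of 13, of the elastic fibre genes 14 of 16 and of the complement genes 15 of 17. The clock list had 10 lower and 2 higher, the sarcomere list 11 of 24 lower and the respiratory chain 11 of 83 lower.

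The 5 largest falls from 24 h were Ankrd2, Lcn2, Mt2, Timp4 and Dbp. Lcn2, an iron-scavenging protein of neutrophils and stressed cells, was at 214, 121 and 456 FPKM at 24 h and 14.7, 13.7 and 10.9 FPKM at 72 h, still above the 3.54 to 4.81 FPKM of sham. Mt2, a metallothionein, was at 911, 578 and 1983 FPKM at 24 h and 112, 112 and 94.4 FPKM at 72 h, with 34.4 to 36.5 FPKM in sham. In both genes 24 h mouse 3 was the highest, and without that mouse 2327 genes were higher and 532 lower.

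The mice at 72 h also differed from each other. Mouse 1 had the highest value of the group in 79 of 83 respiratory chain genes, 25 of 26 fatty acid oxidation genes and 20 of 24 sarcomere genes, and the lowest in 29 of 30 mitosis genes and 16 of 27 collagens. Mouse 2 was the highest in 29 of 30 mitosis genes, 20 of 21 DNA replication genes and 19 of 27 collagens, and the lowest in 53 of the 83 respiratory chain genes. As the median over a list of log2(FPKM + 1) minus the mean of the other mice of the group, mouse 1 stood at 0.39 for the respiratory chain and -0.29 for mitosis, and mouse 2 at -0.22 and 0.30. Mouse 1 was also the highest in 9 of 12 resident macrophage genes (0.55), whereas mouse 3 was the highest in 10 of 13 pan-macrophage and 13 of 15 lipid-handling macrophage genes. For each list named here these differences were smaller than its median change against sham. Without mouse 1 there were 3541 higher and 1217 lower genes. The share of infarcted tissue in each library is not given in the sources used here, and its part in this spread was not tested.

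**Figure D5:**
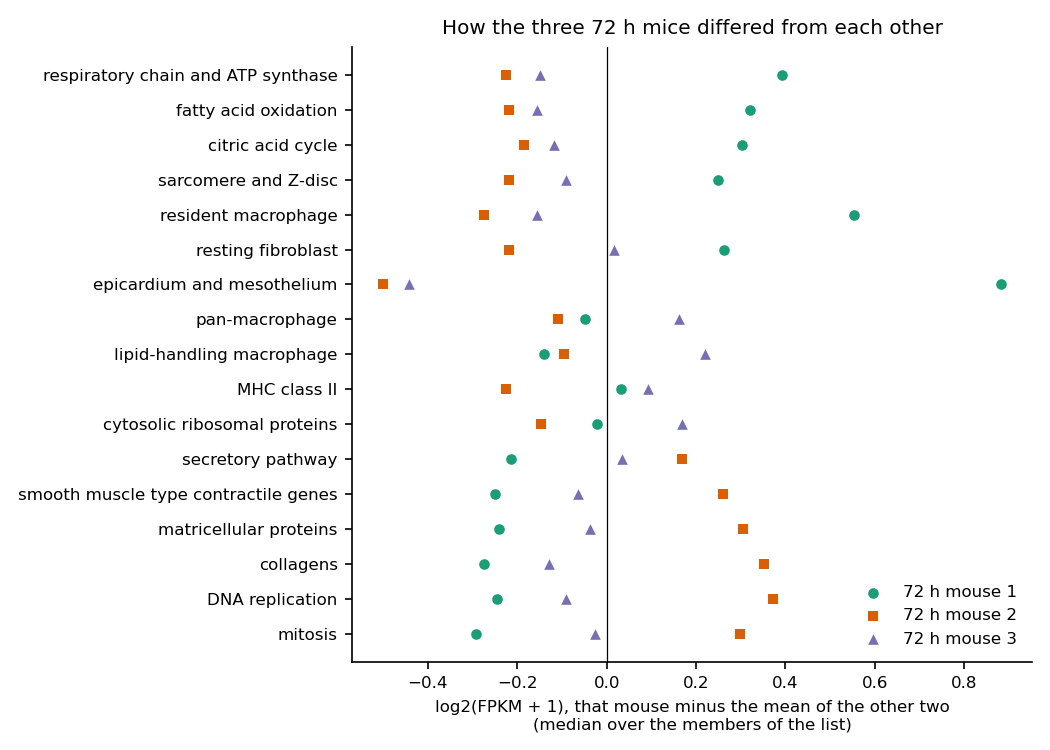
For 17 gene lists, the x axis gives the median over members of log2(FPKM + 1) in 1 mouse at 72 h minus the mean of the other two, with mouse 1 as circles, mouse 2 as squares and mouse 3 as triangles. Mouse 1 lies right of 0 for the respiratory chain, fatty acid oxidation and sarcomere lists and left of it for collagens, DNA replication and mitosis, and mouse 2 lies on the opposite sides.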

How the data were processed

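Left ventricular RNA of 3 sham, 3 AMI 24 h and 3 AMI 72 h mice was used, of 18 mice in the series. The authors trimmed reads with cutadapt 1.18, aligned them to mm10 with HISAT2 2.1.0 and assembled transcripts with StringTie 1.3.4d, and deposited 1 table of FPKM per gene symbol, which holds no read counts. From there, log2(FPKM + 1) was compared with limma 3.58.1 in R 4.3.3, two-sided, with a variance trend and Benjamini-Hochberg adjustment over all genes with at least 1 FPKM in at least 1 of the 6 mice compared. The study's own test needs reads, so limma stands in for it. The p-values measure the spread between these mice. Samples were grouped by their labels. In the table, 25 symbols had been turned into dates and 19 of these were tested but not named. Gene positions are those of GENCODE on mm10, and promoters those of RefSeq. Figures and counts were made with Python 3.11.15, pandas 2.3.3 and matplotlib 3.10.9.

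Genes were named by rule: the 12 largest changes each way against sham and the 5 each way against 24 h with no overlap between groups and no predicted-gene symbol, the 5 most abundant genes of each group, up to 4 members of each list with the largest change and up to 2 in the other direction, the paired muscle forms, and the genes at the filter limit. Acta2, Adgre1, Msln, Clock and Hbb-bs, outside the rule, and the markers Cilp and Comp were named after their values were seen. Members and lists were chosen with earlier results of these data known, and lists share some members (Spp1, Ctss, Ltbp2). No set test was run. The code was tested on simulated data. Alternatives were other scalings, filters, pseudocounts and fits, and leaving out each mouse.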

Additional observations from a re-analysis of the deposited data

Results flagged for a closer look

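Of the 31 genes named for the largest changes, 28 differed between 72 h and 24 h by the direct limma test (adjusted p under 0.05 and a mean FPKM more than 2-fold apart). They were chosen for large changes in the same 72 h mice, 10 of them in this very comparison, so the count describes the choice and is no separate evidence. The values that follow are log2 differences, 72 h minus 24 h, with 3 mice a group.

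Among genes above sham at both times, the matrix genes were further up: Tnc by 1.69, Lox by 3.22, Postn by 4.46 and Col1a1 by 4.60. Mfap4, below sham at 24 h and above it at 72 h, differed by 5.13. The macrophage and phagocyte genes were further up as well, Hmox1 by 2.07, Spp1 by 2.60, Lgals3 by 2.72, Ctss by 3.01, Mpeg1 by 3.40, Trem2 by 3.76, Ccl8 by 4.61 and Gpnmb by 5.79. Ptn differed by 4.85 and Sprr2a2 by 4.69. Arg1 was the rise against sham that did not differ from 24 h by this test (-0.54).

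Clock genes were lower than at 24 h, Hlf at -1.63, Per3 at -1.81, Tef at -1.96, Ciart at -1.57, Per2 at -2.59 and Dbp at -2.73. Dgat2 stood at -1.37, Tcap at -1.61 and Timp4 at -2.76. Cyp1a1, lower than sham at both times, was higher at 72 h than at 24 h by 1.75. Ankrd2 at -4.57, Lcn2 at -4.03 and Mt2 at -3.25 were above sham at both times and lower at 72 h. Cyp26b1 (-0.72) and Mylk4 (-0.64) were not called. With 3 mice a group, single outlying mice were not tested for.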

How the results depend on the processing

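The scaling changed most. Under quantile normalization 2119 genes were higher and 2298 lower than in sham, and 1296 higher and 955 lower than at 24 h. Under median-of-ratios scaling 1865 were lower than in sham and 735 lower than at 24 h, and all 1098 genes called lower in the FPKM as deposited were among the 1865. In 4 lists the balance of calls turned: under median-of-ratios scaling 4 glycolysis and hypoxia, 3 resting fibroblast, 1 angiogenic and 2 Schwann cell genes were higher, each fewer than were lower, and under quantile normalization 1 Schwann cell gene was. Tnnt2 (difference 0 under quantile normalization) and Rps2 (0.20 under median-of-ratios scaling) lost an adjusted p under 0.05. The cause of these differences was not tested. Pseudocount, filter, fit and threshold alternatives kept the counts over all genes within 1.5 times, with 4407 higher and 1321 lower against sham with no filter, and 2681 and 780 where the limit was set at 1 on the log2(FPKM + 1) scale. Short lists moved more: with no filter 17 of 37 WNT, 10 of 23 growth factor, 8 of 10 dendritic cell, 6 of 11 T cell and 7 of 8 NK cell genes were higher, and 3 dendritic cell genes were higher with a mean FPKM of at least 1 or with that limit. Leaving out each mouse gave 3349 to 3541 higher and 1037 to 1217 lower genes against sham, 1747 to 2327 and 323 to 532 against 24 h, 38 to 40 lists with more members higher, 13 to 14 with more lower, and 25 pairs with a lower ratio each time. Leaving out 3 pairs whose roles differ, chosen after seeing the data, left 22 of 22. The labels tie same-numbered mice by number alone. The correlation of their deviations was 0.0195, 0.0207 and 0.00878 for 72 h and sham, and 0.321, -0.159 and 0.0598 for 72 h and 24 h. With 3 mice a group these values cannot decide whether the mice were paired. With a replicate block there were 3466 higher and 1103 lower genes against sham, and 2021 and 408 against 24 h, 39 lists with more members higher and 13 with more lower. Without read counts, no counting error can be given.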

Other observations

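Of the 12022 protein-coding genes tested against sham, 26.5% were called higher and 8.19% lower. Of 65 small nucleolar RNA genes, 32 were higher and 1 lower, although the libraries were made from poly-A RNA. Of 89 lincRNA genes 23 were higher and 22 lower, and of 84 antisense genes 14 were higher and 16 lower. Short and antisense transcripts can share reads with the genes they overlap, and these values are uncertain for that reason.

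Dendritic cell and mast cell genes were few. Of 10 dendritic cell genes 7 were tested and 5 were higher, but 4 of the 7 reached 1 FPKM only at 72 h, and under quantile normalization 2 were higher and 2 lower. Of these genes Flt3 rose by 2.14 and Cd209a by 2.12 on the log2 scale, while Clec9a was at -0.23 and not called. Of 6 mast cell genes 3 were tested, and Mcpt4 was at -0.03 and not called.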
